A study of Mus musculus with 8 samples.

Results

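The 7 genes described here are Ltf, Ngp, Lcn2, Lyz2, Camp, Pglyrp1 and Padi4, a set proposed as genes of neutrophil secondary granule proteins. They were picked by symbol and matched by Ensembl identifier. All 7 were in the junction table, with 47 of its 134051 junctions, and all 7 were among the 11003 of 13378 genes with enough reads to be tested. RNA came from FT1CL, a mouse acute myeloid leukemia line grown with serum and interleukin-3. The marrow behind the line was taken from Cop1 cKO/Rosa26-Cre-ERT2 mice of 8 weeks after 5-fluorouracil and transduced with a Trib1 retrovirus, so both groups carry introduced Trib1. The 4 wild-type libraries (labelled genotype Cop1 +/+) were untreated, and the 4 knockout libraries (Cop1 ko/ko) came from cells given 4-hydroxytamoxifen, the drug that switches on the Cre recombinase. Drug and genotype changed together and cannot be told apart. The labels do not state whether the line is clonal or whether each library had its own culture. The p-values therefore reflect how far these libraries differ, a spread that may be technical.

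Neutrophils build their granules in waves as they mature. Primary granules, with myeloperoxidase and elastase, are filled at the promyelocyte stage, and secondary granules, with lactoferrin and lipocalin 2, at the myelocyte stage. The granule genes are switched on by C/EBP factors, among them C/EBPα and C/EBPε, and COP1 is a ubiquitin ligase that acts with Tribbles proteins on C/EBPα. Not every protein of the set is stored in secondary granules: lysozyme is held in several granule types and made by macrophages too, and PADI4 is an enzyme of the cytoplasm and nucleus.

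Values are reads on exon-exon junctions, summed over a gene's junctions and divided by the library's total, in reads per 1000000 junction reads (RPM). Library totals lay between 17333302 and 22469109 junction reads. Cop1 itself was at 159 to 166 RPM in wild type and 66.7 to 81.3 RPM in knockout (162 ± 2.92 and 73.7 ± 6.47, SD, n = 4). It was lower in every knockout library and not absent, at 0.454 of the wild-type mean. This sum runs over all its junctions and does not check the deletion itself. Knockout library 4 had the lowest Cop1 level of the 8, yet for Ltf, Ngp, Lcn2 and Lyz2 it lay between the wild-type libraries and the other knockout libraries. In bulk RNA, fewer cells of a type and less RNA per cell cannot be told apart.

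Lactoferrin, neutrophilic granule protein, lipocalin 2 and lysozyme 2 were far higher in knockout cells, while cathelicidin, peptidoglycan recognition protein 1 and PADI4 did not pass the test. Of the 7 genes, 4 passed in the higher direction and 0 in the lower, by limma on log2(RPM + 1) with a threshold of 0.05 on the adjusted p. Among all genes tested, 8.49% passed as higher, 12.1% as lower and 20.6% in either direction. By edgeR, by DESeq2 and at an unadjusted limma p under 0.05, 0 of the 7 were lower as well. For the same 4 genes every knockout library lay above every wild-type library, which held for 9.79% of all genes tested. Together the 7 genes held 0.0503, 0.0432, 0.0639 and 0.0202% of junction reads in wild-type libraries 1 to 4 and 0.493, 1.11, 0.576 and 0.0856% in knockout libraries 1 to 4. Knockout library 4 thus lay above the wild-type libraries and far below the other knockout libraries.

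**Figure D1:**
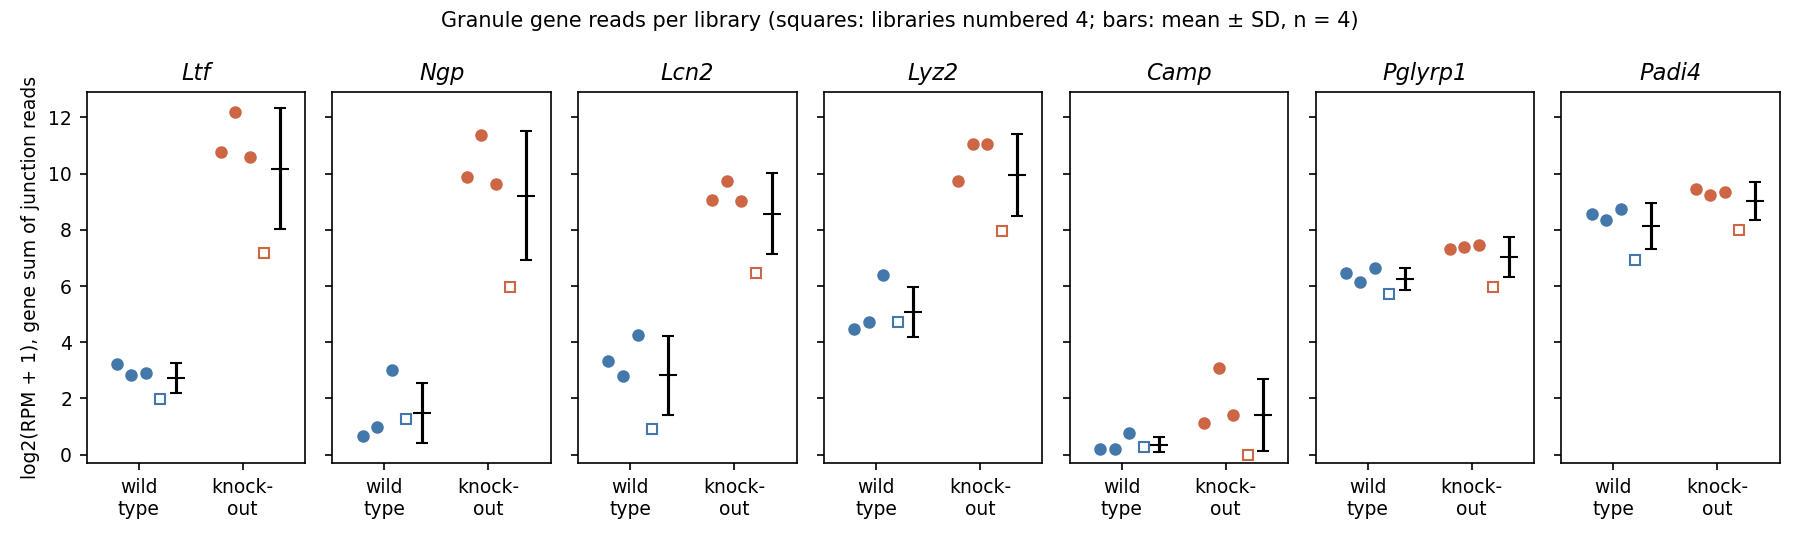
Each panel plots log2(RPM + 1) of 1 gene in the 8 libraries, with wild type left and knockout right, open squares for the libraries numbered 4, and bars for the mean and SD (n = 4). The groups are apart for Ltf, Ngp, Lcn2 and Lyz2 and overlap for Camp, Pglyrp1 and Padi4.

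Ltf encodes lactoferrin, the iron-binding protein that defines secondary granules (ENSMUSG00000032496, chromosome 9, 111019271 to 111042767 on GRCm38, plus strand, 17 exons in Ltf-201). It had 8.39, 6.16, 6.51 and 2.92 RPM in wild-type libraries 1 to 4, and 1732, 4697, 1539 and 142 RPM in knockout libraries 1 to 4. The lowest knockout library still lay far above the highest wild-type library, and knockout library 4 held 5.33% of the mean of the other 3. The means were 5.99 ± 2.27 and 2028 ± 1916 RPM (SD, n = 4), 338-fold apart, and the log2 fold change was 7.44 (SE 0.93, 95% interval 5.30 to 9.58, adjusted p = 0.00273). By level per junction Ltf ranked between 9560 and 11432 of all genes in wild type, and 142, 49, 167 and 2317 in knockout libraries 1 to 4.

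Ngp encodes neutrophilic granule protein, a cathelicidin relative stored in mouse granules (ENSMUSG00000032484, chromosome 9, 110419747 to 110423012, plus strand, 4 exons). Wild-type libraries 1 to 4 had 0.572, 0.956, 7.20 and 1.40 RPM, and knockout libraries 1 to 4 had 941, 2671, 784 and 61.6 RPM. Wild-type library 3 stood above the other wild-type libraries, and the groups did not overlap. The log2 fold change was 7.73 (SE 1.07, 95% interval 5.28 to 10.19, adjusted p = 0.00387). By level per junction Ngp ranked 48, 4, 57 and 952 of all genes in knockout libraries 1 to 4.

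Ngp and Ltf were the genes with the largest changes of the set, and the 250 bases before their RefSeq starts (GRCm38.p6) are shown as far as they lie outside annotated exons, 5′ to 3′ on the strand of the gene. Capitals mark matches to TTNNGNAA, a loose form of the C/EBP motif, on either strand. The Ltf stretch is chr9:111019042-111019270 and the Ngp stretch chr9:110419558-110419746, both on the plus strand. The stretch before the RefSeq start of Pglyrp1, chr7:18884440-18884679 on the plus strand, is given for contrast because it holds no match. It lies inside the Gencode span of Pglyrp1 (18871331 to 18890459), so sequence before the Gencode start was not searched.
Ltf: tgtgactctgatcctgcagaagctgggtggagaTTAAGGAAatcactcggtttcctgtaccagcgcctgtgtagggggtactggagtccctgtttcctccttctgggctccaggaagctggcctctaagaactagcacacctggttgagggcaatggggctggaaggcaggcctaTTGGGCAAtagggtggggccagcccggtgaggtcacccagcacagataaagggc
Ngp: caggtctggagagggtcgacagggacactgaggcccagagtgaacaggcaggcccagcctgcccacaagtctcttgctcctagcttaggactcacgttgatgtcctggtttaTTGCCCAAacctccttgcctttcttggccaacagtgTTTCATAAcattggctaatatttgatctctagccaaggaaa
Pglyrp1: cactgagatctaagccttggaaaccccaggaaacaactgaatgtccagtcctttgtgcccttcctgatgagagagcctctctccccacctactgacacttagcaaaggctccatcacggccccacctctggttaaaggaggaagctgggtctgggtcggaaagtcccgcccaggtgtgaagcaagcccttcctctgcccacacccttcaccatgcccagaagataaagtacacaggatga

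Ngp has a further match 11 to 4 bases before its start. Lcn2 and Lyz2 have 1 match each, shown with 10 bases on either side, 216 to 209 and 55 to 48 bases before the start.
Lcn2: gcccttcctgTTGCTCAAccttgcacag
Lyz2: ccacaagctgTTGGGAAAggagggactt
The motif was found in 4 of the 7 promoters, those of Ltf, Ngp, Lcn2 and Lyz2. The Lcn2 match and the last Ngp match lie in exons annotated by Gencode and the Lyz2 match runs into one, so outside annotated exons only Ltf and Ngp hold whole matches. Among 32851 promoters of the same length 36.8% hold it. GAGGAA, the core of the PU.1 motif, was found in the promoters of Ltf, Lcn2 and Pglyrp1 (3 of 7, against 23.3% of all), and TATAAA in that of Padi4 (1 of 7, against 12.4%), both searched on both strands. The 3 motifs were chosen after the fold changes were known, and a match is a description of letters in a window.

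Lcn2 encodes lipocalin 2, which binds bacterial siderophores and so withholds iron (ENSMUSG00000026822, chromosome 2, 32384633 to 32388252, minus strand, 6 exons). It had 9.01, 5.95, 18.1 and 0.898 RPM in wild-type libraries 1 to 4 and 534, 854, 519 and 87.2 RPM in knockout libraries 1 to 4. The groups did not overlap, and wild-type library 4, with 16 reads, was the lowest of all. The log2 fold change was 5.75 (SE 0.85, 95% interval 3.79 to 7.70, adjusted p = 0.00447).

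The reads of Lcn2 were spread unevenly over its 5 junctions in 3 knockout libraries. The junctions named E3.5-I3.2 and E3.7-E4.1 together held 8, 8 and 14 reads in knockout libraries 1, 2 and 3, against 10945, 14800 and 10042 reads at the other 3 junctions. In knockout library 4 they held 872 reads against 1088. Per junction, the level at these 2 was 92.3, 101 and 108% of the level at the other 3 in wild-type libraries 1 to 3, 120% in knockout library 4, and 0.110, 0.0811 and 0.209% in knockout libraries 1 to 3. Wild-type library 4 had too few reads to compare, 4 against 12. Values under 10% of the level predicted from the rest of their gene, a wider class than these, made up 5.07% of all junction values predicted at 100 scaled reads or more, and touched 2720 genes. Without the 2 junctions the log2 fold change of Lcn2 was 6.07. Whether these values are a loss in the deposited table or an absence of the spliced RNA was not tested.

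**Figure D2:**
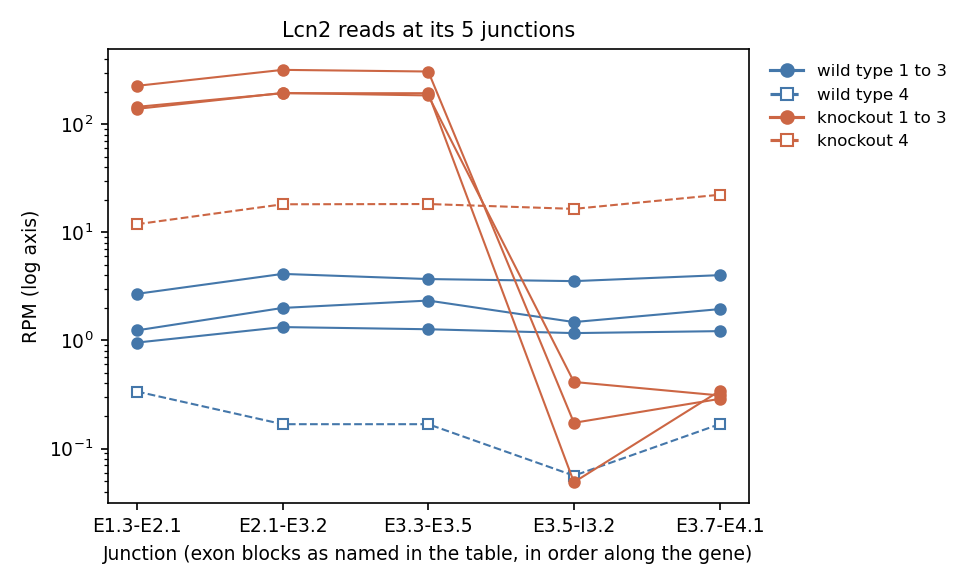
RPM on a log axis at the 5 junctions of Lcn2, in order along the gene, for each library (blue wild type, orange knockout, open squares and dashed lines for the libraries numbered 4). Knockout libraries 1 to 3 fall at the last 2 junctions to between 0.0488 and 0.413 RPM, while knockout library 4 stays at 16.5 and 22.3 RPM.

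Lyz2 encodes the lysozyme of myeloid cells, which cleaves bacterial cell walls (ENSMUSG00000069516, chromosome 10, 117277331 to 117282321, minus strand, 4 exons). Wild-type libraries 1 to 4 had 21.2, 25.4, 83.6 and 25.3 RPM and knockout libraries 1 to 4 had 859, 2098, 2099 and 246 RPM. Wild-type library 3 stood apart from its group and knockout library 4 from the others, and the groups did not overlap. The log2 fold change was 4.86 (SE 0.73, 95% interval 3.20 to 6.52, adjusted p = 0.00450), a ratio of means of 34.1. Lyz1, the near-identical copy 5.47 kb away, held 0 to 4 reads in the wild-type libraries. In the knockout libraries it held 9 to 93, and its level per junction was 0.244 to 0.486% of that of Lyz2. Reads that fit both copies may have been assigned to either, so the Lyz1 values are uncertain.

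Camp encodes cathelicidin, an antimicrobial peptide of secondary granules (ENSMUSG00000038357, chromosome 9, 109847379 to 109849617, minus strand, 4 exons). Unlike Ngp and Ltf on chromosome 9, which were low in wild type only, it was barely read in both groups. It had 3, 3, 13 and 4 reads in wild-type libraries 1 to 4 and 24, 130, 33 and 0 reads in knockout libraries 1 to 4. This equals 0.143, 0.159, 0.688 and 0.225 RPM, and 1.17, 7.50, 1.70 and 0 RPM, where 0 reads in knockout library 4 allow up to 0.134 RPM (3 reads, counting error only). Knockout libraries 1 to 3 were above all wild-type libraries and knockout library 4 was below them. The log2 fold change was 1.05 (SE 0.57, 95% interval -0.26 to 2.36, adjusted p = 0.232), on a scale that understates changes near 1 RPM. On the recovered reads it was 3.14 in edgeR (adjusted p = 0.128) and 3.18 in DESeq2 (adjusted p = 0.0488), and in limma without knockout library 4 it was 1.52 (adjusted p = 0.0472).

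Pglyrp1 encodes a peptidoglycan-binding antibacterial protein of neutrophil granules (ENSMUSG00000030413, chromosome 7, 18871331 to 18890459, plus strand). It was already well read in wild type, at 87.2, 70.6, 99.6 and 51.8 RPM in libraries 1 to 4, against 159, 168, 174 and 62.2 RPM in knockout libraries 1 to 4. Knockout libraries 1 to 3 lay close together above wild type, and knockout library 4 lay within the wild-type range. The log2 fold change was 0.79 (SE 0.35, 95% interval -0.01 to 1.59, adjusted p = 0.148). It passed with the replicate number as a block (adjusted p = 0.0174), without knockout library 4 (1.14, adjusted p = 0.00771), without both libraries numbered 4 (0.97, adjusted p = 0.00404), and in DESeq2 (0.95, adjusted p = 0.0305).

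Padi4 encodes the deiminase that converts histone arginines to citrulline and takes part in the release of neutrophil chromatin (ENSMUSG00000025330, chromosome 4, 140745865 to 140774236, minus strand, 16 exons). It had 376, 323, 423 and 119 RPM in wild-type libraries 1 to 4 and 701, 605, 647 and 257 RPM in knockout libraries 1 to 4. The libraries numbered 4 were the lowest of both groups, and knockout library 4 lay below 3 of the wild-type libraries. The log2 fold change was 0.88 (SE 0.46, 95% interval -0.16 to 1.92, adjusted p = 0.209). Within the 4 same-numbered pairs the knockout was higher by 0.90, 0.90, 0.61 and 1.10 on the log2 scale, and with the replicate number as a block the gene passed (0.88, 95% interval 0.65 to 1.11, adjusted p = 0.00315). It also passed without both libraries numbered 4 (0.80, adjusted p = 0.00442).

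The replicate numbers of the labels were taken as pairs, a choice made because same-numbered libraries deviated together in these data. With this block the calls of Pglyrp1 and Padi4 changed but not those of the other 5 genes. Of the 7, 6 then passed as higher, against 12.3% of all genes tested. DESeq2 (all but Padi4, against 14.8% of all genes), leaving out knockout library 4 (all but Padi4, 11.4%) and leaving out both libraries numbered 4 (all but Camp, 11.0%) also gave 6. Camp did not (adjusted p = 0.169), since its same-numbered differences were 0.93, 2.87, 0.68 and -0.29. Those of Pglyrp1 were 0.86, 1.24, 0.80 and 0.26, all in the same direction.

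**Figure D3:**
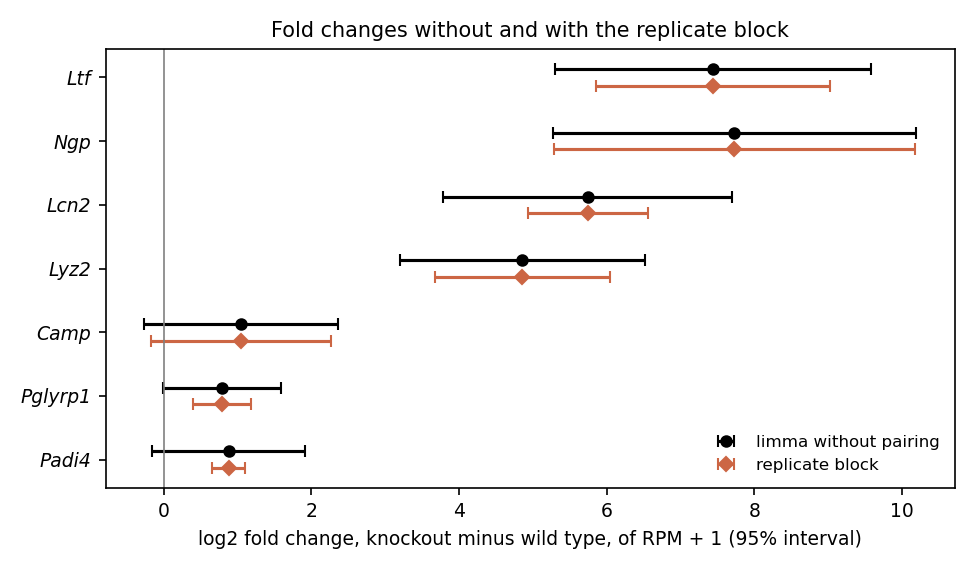
Log2 fold changes (knockout minus wild type, RPM + 1) of the 7 genes with 95% intervals, from limma without pairing (black circles) and with the replicate block (orange diamonds). The intervals of Ltf, Ngp, Lcn2 and Lyz2 start at 3.20 or more in both fits, and those of Pglyrp1 and Padi4 leave 0 only with the block.

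The genes changed by different amounts. Over all 21 pairs of genes, the per-library difference of log2(RPM + 1) was compared between the groups by a two-sided exact permutation test, and 14 pairs passed after adjustment over the 21 (p = 0.0286, adjusted p = 0.0429, the smallest p that 4 against 4 libraries can give). Each of Ltf, Ngp, Lcn2 and Lyz2 changed more than each of Camp, Pglyrp1 and Padi4, by 3.82 (Lyz2 against Camp, SE 0.50) to 6.94 (Ngp against Pglyrp1, SE 0.95) on the log2 scale. The low level of Camp widens its gaps on this scale. On the recovered reads Lyz2 had a log2 fold change of 5.16 in edgeR and 5.17 in DESeq2 against 3.14 and 3.18 for Camp, and that difference was not tested. Ltf and Ngp also changed more than Lyz2, by 2.57 (SE 0.70) and 2.87 (SE 0.58). The differences between Ngp and Ltf (0.29, SE 0.61, exact permutation p = 0.686) and between Padi4 and Pglyrp1 (0.09, SE 0.24, exact permutation p = 0.943) were smaller than their errors. Those of Ltf and of Ngp against Lcn2 (1.69 and 1.98, exact permutation p = 0.0571 for both) did not pass.

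The order of the levels per junction changed in part between the groups, while Camp was last and Pglyrp1 lay above Padi4 in every library. Per junction, with the 2 low junctions of Lcn2 left out, wild-type libraries 1 and 2 ran Pglyrp1, Padi4, Lyz2, Lcn2, Ltf, Ngp and Camp from high to low. Knockout library 1 ran Ngp, Lyz2, Lcn2, Ltf, Pglyrp1, Padi4 and Camp. In knockout libraries 1 to 3 each of Ngp, Lyz2, Lcn2 and Ltf lay above Pglyrp1 and Padi4. Knockout library 4 was mixed, with Lyz2 highest, Pglyrp1 next and Ltf below Padi4. Among neighbours in the order of group means, the ranges of libraries were apart only for Lyz2 over Lcn2 in wild type and for Padi4 over Camp in knockout. Without regard to the number of junctions, Padi4 made up 59.1 to 74.8% of the reads of the 7 genes in wild type and 5.45 to 14.2% in knockout libraries 1 to 3 (30.0% in knockout library 4), while Ltf went from 1.02 to 1.67% in wild type to 16.5 to 42.3% in knockout.

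**Figure D4:**
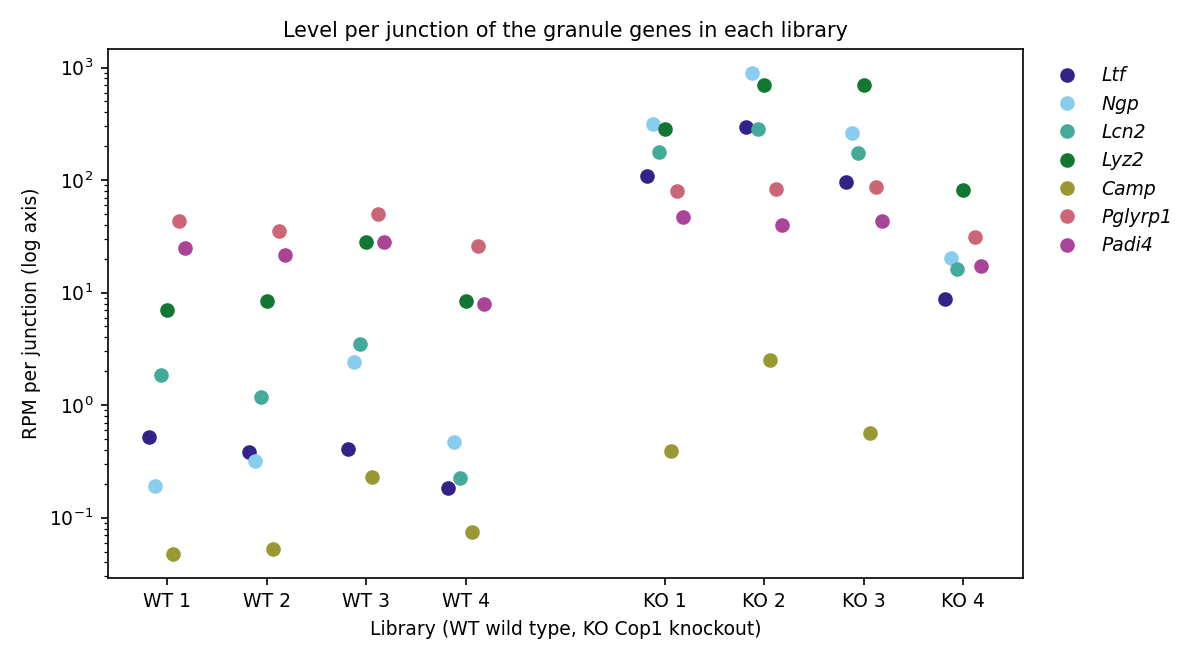
RPM per junction on a log axis for the 7 genes in each library (WT wild type, KO knockout). Pglyrp1 is the highest of the 7 in all wild-type libraries, and Ngp or Lyz2 in the knockout libraries. Camp in KO 4, with no read, is not drawn.

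The changes ran along the whole transcripts of 3 genes. In a fit over 101158 junctions, 16 of 16 junctions of Ltf (6.70 to 8.38 on the log2 scale), 3 of 3 of Ngp (8.16 to 8.46) and 3 of 3 of Lyz2 (4.87 to 4.92) passed as higher, against 4.17% of all junctions. Lcn2 passed at 3 of its 5 junctions (6.23 to 6.49), all but the 2 described above. Of the 2 junctions of Pglyrp1 (0.79 and 0.80) and the 15 of Padi4 (0.79 to 1.04), 0 passed by limma, also at an unadjusted p under 0.05, and those of Camp had too few reads. With the replicate block, 42 of the 44 tested junctions passed, in place of 25, against 5.08% of all junctions.

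Camp, Ngp and Ltf lie within 1170 kb of each other on chromosome 9, with gaps of 570 and 596 kb, and the genes between and around them did not share the rises of Ngp and Ltf. Of 18 other tested genes from the start of Camp to Ltf and 500 kb to either side, 2 passed as higher and 7 as lower. Among all genes tested, 8.49% passed as higher and 12.1% as lower. The highest log2 fold change of the 18 was 0.85. That was Lrrfip2 (59.7 ± 4.03 to 109 ± 16.0 RPM, SD, n = 4, adjusted p = 0.00366). Als2cl, between Ngp and Ltf, fell from 29.6 ± 4.30 to 7.44 ± 3.45 RPM (log2 fold change -1.93, adjusted p = 0.00388), and Smarcc1, a chromatin remodelling subunit between Camp and Ngp, from 472 ± 26.0 to 234 ± 36.7 RPM (-1.02, adjusted p = 0.00187). Within 500 kb of any of the 7 genes, 8 of 86 tested neighbours passed as higher and 16 as lower, 27.9% in all against 20.6% of all genes. The neighbours with the smallest adjusted p at the other loci were 1110008P14Rik next to Lcn2 (1.09, adjusted p = 0.0140), Slc35e3 near Lyz2 (-1.19, 0.0120), Ercc2 near Pglyrp1 (-0.51, 0.00786) and Rcc2 near Padi4 (-0.77, 0.00409). The count of higher neighbours ran from 3 (without wild-type library 3, where 6.92% of all genes were higher) to 14 (DESeq2, 14.8%) with this window. The count of lower ones ran from 9 (without wild-type library 2 or knockout library 3, and on the most-read junction alone) to 20 (replicate block), with 10 without knockout library 2. Of all genes, 6.48, 6.44, 11.3, 15.7 and 7.36% were lower in these fits, in the order given.

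**Figure D5:**
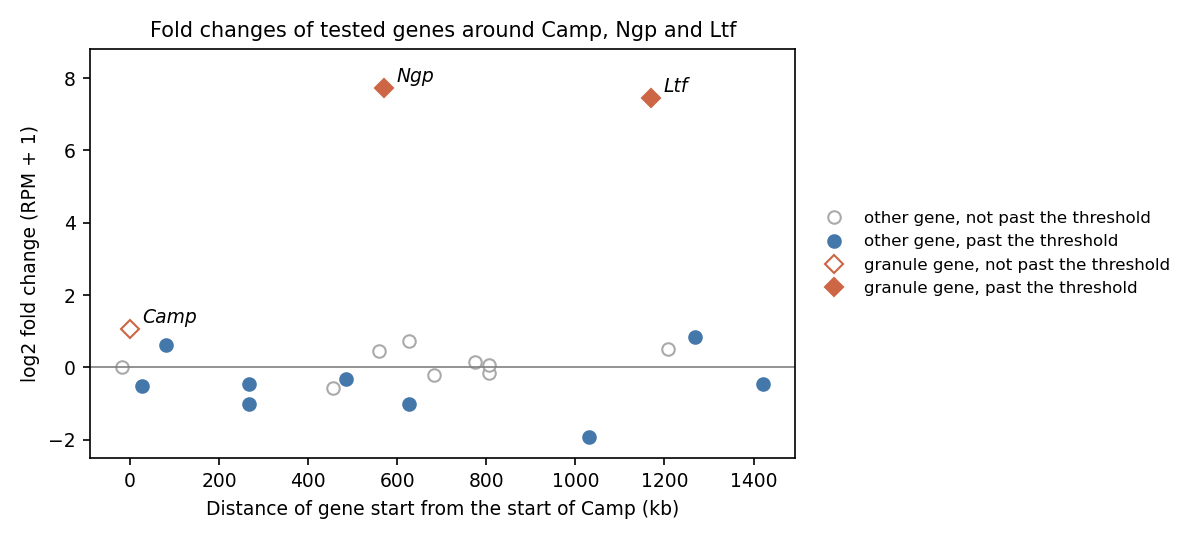
Log2 fold change of each tested gene against the distance of its start from the start of Camp in kb (orange diamonds for Camp, Ngp and Ltf, circles for the other 18 genes, filled where the test was passed). Ngp and Ltf stand at 7.73 and 7.44, and Camp and the others lie between -1.93 and 1.05.

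Other genes of secondary and tertiary granules were also higher. Of 22 listed, 16 were tested, and 9 passed as higher and 0 as lower, against 8.49% and 12.1% of all genes. The median log2 fold change was 2.41 against -0.07 over all genes. Mmp8, neutrophil collagenase, had 21.8, 16.2, 11.9 and 1.24 RPM in wild-type libraries 1 to 4 and 1522, 1614, 1328 and 98.1 RPM in knockout libraries 1 to 4. Like Ltf it was low in knockout library 4 without reaching the wild-type range. Chil1, a chitinase-like secreted protein, averaged 55.0 ± 34.6 RPM in knockout, against 0.365 ± 0.178 RPM in wild type (SD, n = 4). Cybb, the membrane subunit of the phagocyte oxidase, rose by 2.73 on the log2 scale (adjusted p = 0.0126). The protease inhibitor Slpi (log2 fold change 3.26), the membrane protease Adam8 (2.75) and annexin A1, Anxa1 (2.13), rose as well, with adjusted p of 0.00446 to 0.00978. The list gave 15 without knockout library 4 and 6 without any 1 of the other libraries but wild-type library 3 (8). The share of all genes called higher also moved. It was 11.4% without knockout library 4 and 4.64 to 6.92% without any 1 of the others. Several of these genes were chosen with their rise in these data known.

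Of 11 tested genes on a list for primary granules, 3 passed as higher and 0 as lower (median 0.57), against 8.49% and 12.1% of all genes. The list is wider than the proteins stored in these granules. The 3 were Ctsg (cathepsin G, 523 ± 409 to 1882 ± 377 RPM), Serpinb1a (158 ± 26.3 to 901 ± 326 RPM, log2 fold change 2.45, adjusted p = 0.00124) and Ms4a3 (1.87, adjusted p = 0.0356). Mpo, Elane and Prtn3 did not pass in the same limma fit (adjusted p = 0.470, 0.367 and 0.969). The call of Ms4a3 was lost without any 1 of 6 libraries (all but wild-type library 3 and knockout library 4) and without both libraries numbered 4. In knockout library 4, where Ltf was low, Serpinb1a had 1343 RPM, the highest of the 8 libraries. Ctsg had 1450 RPM there, the lowest of the knockout libraries. Mpo (154 RPM, against 722 to 819 RPM in knockout libraries 1 to 3) and Elane (3.20 against 27.0 to 41.5 RPM) were also lowest there. So were Prtn3, Prss57 and Cd63, while Ctsc, Cst7 and Srgn were highest there among the knockout libraries. Srgn had 1.02, 739, 1004 and 1300 RPM in knockout libraries 1 to 4, and 2 of its 6 junctions held a low value. Its value in knockout library 1 is thus uncertain. Apart from Ctsg and Serpinb1a, the genes compared in knockout library 4 did not pass and were named after their values were seen.

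Among 12 tested regulators of granule genes, 5 passed as higher and 2 as lower (median 0.69), against 8.49% and 12.1% of all genes. Cebpe, the C/EBP factor of the myelocyte stage, had 3.19, 4.51, 8.41 and 0.730 RPM in wild-type libraries 1 to 4 and 32.3, 42.9, 36.1 and 7.12 RPM in knockout libraries 1 to 4 (log2 fold change 2.55, adjusted p = 0.0282). Knockout library 4 was just below wild-type library 3. Gfi1 (1.37), Spi1, which encodes PU.1 (0.78), Klf5 (1.27) and Cebpd (1.06, adjusted p = 0.0478, named after its value was seen) also passed. Cebpe and Cebpd were each read at 1 junction only. Whether the Cebpd junction is an ordinary splice between exons was not checked, so its call is uncertain. The repressor Cux1, known to act on the lactoferrin promoter, fell by 0.84 (adjusted p = 0.0128) and Stat3 by 0.60 (adjusted p = 0.00856). The count of 5 was 0 without wild-type library 1 or knockout library 3, 1 without wild-type library 2, knockout library 1 or knockout library 2, and 2 without wild-type library 4. In those fits 4.64 to 6.05% of all genes passed as higher. Cebpa and Cebpb were not analysed here.

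Receptors and partners of the 7 proteins were partly higher. Of 5 tested, 3 passed as higher, against 8.49% of all genes. They were Cd14, the lipopolysaccharide receptor that lactoferrin can bind (3.11, adjusted p = 0.00551), Trem1, a receptor for PGLYRP1 (2.08, adjusted p = 0.00858), and Tlr4 (1.33, adjusted p = 0.00831). The count was 5 with the replicate block (against 12.3% of all genes) and without knockout library 4 (11.4%). It was 5 of 6 tested without both libraries numbered 4 (11.0%) and 4 in DESeq2 (14.8%). With a filter of 10 RPM it was 1 of 2 tested (9.26%), and without a filter 4 of 7 (6.84%).

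Iron handling, in which lactoferrin and lipocalin 2 take part, showed changes in both directions. Of 14 genes tested, 5 passed as higher and 2 as lower (median 0.09), against 8.49% and 12.1% of all genes. The count of lower genes is thus close to the share over all genes. Higher were the iron exporter Slc40a1 (3.24), heme oxygenase Hmox1 (19.9 ± 6.45 to 81.9 ± 22.0 RPM), ferritin heavy chain Fth1 (1.06), Fbxl5 (0.83) and the mitochondrial iron importer Slc25a37 (0.75). Lower were the ferrireductase Steap3 (-1.43, adjusted p = 0.00487) and the transferrin receptor Tfrc (-0.65, adjusted p = 0.0322, named after its value was seen). The call of Fth1 was lost without any 1 of 6 libraries (all but wild-type library 1 and knockout library 4). The count of lower genes was 1 under TMM scaling, edgeR, the higher filter, without the low junctions, and without any 1 library but knockout library 4, and 4 without knockout library 4 or both libraries numbered 4. Over all genes the share called lower was 6.44 to 16.5% in the fits that gave 1. It was 15.9 and 14.1% in those that gave 4.

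Of the family relatives of the 7, only 4 were read enough to be tested. Lyz1 passed as higher (1.72, adjusted p = 0.0273, a call kept only with knockout library 4 as the 1 left out), and Pglyrp2 fell from 25.8 ± 7.45 to 9.62 ± 2.56 RPM (SD, n = 4, adjusted p = 0.0119). Padi2, at 297 ± 86.7 and 331 ± 80.6 RPM, and transferrin, Trf, at 105 ± 33.2 and 129 ± 48.0 RPM, did not pass.

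Markers of other cell states were read beside the granule genes. In the same limma fit 8.49% of all genes passed as higher and 12.1% as lower. Of 7 late neutrophil markers 4 passed as higher: S100a8, S100a9, Ly6g and Cxcr2, with 12.6 to 84.4 RPM summed over the list in wild type, 315 to 716 RPM in knockout libraries 1 to 3 and 33.0 RPM in knockout library 4. Retnlg had no read in any wild-type library. Of 8 monocyte and macrophage markers 0 passed by limma (1 at an unadjusted p under 0.05, 0 by edgeR, 3 by DESeq2), with summed levels of 188 to 868 RPM in wild type and 448 to 1787 RPM in knockout. With the replicate block 3 of these 8 passed as higher and 1 as lower, and without both libraries numbered 4 it was 2 and 0. Of all genes, 12.3% passed as higher and 15.7% as lower with the block. Without both libraries numbered 4 these shares were 11.0% and 14.1%. Of 6 mast cell and basophil markers 3 passed as higher (Mcpt8, Tpsb2 and Ms4a2), and Cpa3, a mast cell protease, was at 9119 to 14007 RPM in the 8 libraries. Eosinophil markers (0 of 3 higher by limma and edgeR, 1 by DESeq2 and at an unadjusted p under 0.05), erythroid markers (0 of 2 higher, 1 lower), megakaryocyte markers (0 of 3 by limma and edgeR, 1 lower by DESeq2), T cell markers (1 of 2, Cd28), B cell markers (0 of 1 by all 3 tools) and progenitor and pan-leukocyte markers (1 of 6 higher, Ptprc, and 1 lower, Cd34) were tested in the same fit. Under the replicate block 6 late neutrophil markers passed as higher, and 5 did when both libraries numbered 4 were left out. Eosinophil markers were 1 higher and 1 lower under either setting, 2 progenitor and pan-leukocyte markers were lower with the block, and 2 erythroid markers were lower without both libraries numbered 4. Cd28, Cd34, Ptprc and S100a8 lost their calls without any 1 of 5 to 7 libraries. The part of these cell types in the levels of the granule genes was not tested.

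The genes most like the granule genes across the 8 libraries were found by the distance between profiles, each scaled to mean 0 and SD 1, from the mean profile of the 7. The nearest of 10996 genes was Znfx1 (distance 0.208, against a median of 4.11), with 12.3, 12.5, 15.8 and 9.54 RPM in wild type and 29.2, 35.7, 33.1 and 15.4 RPM in knockout. Next came Ly6c1, a surface antigen of myeloid cells, with 0.337 to 7.72 RPM in wild type and 60.1, 83.9, 69.4 and 7.52 RPM in knockout libraries 1 to 4. Mapkapk2, Hsd11b1, Gm10238, Clec4a2, the oxidase subunit Cyba, Flot2, Ly6i and Tmem38b followed, at distances up to 0.399. In each of the 10 named genes, as in the 4 granule genes that passed, knockout library 4 was the lowest of its group. The mean profile they were picked by is itself lowest there among the knockout libraries, so the choice favours this trait. The 8 libraries share the group difference and the low values of the libraries numbered 4, and likeness over so few points has no p. By the same measure Lcn2 was the nearest of the 7 to their mean (0.590) and Camp the farthest (1.49).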

How the data were processed

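RNA of 8 FT1CL libraries (4 wild type, 4 Cop1 knockout) was analysed from 1 table. Its deposited unit is a normalised junction signal, with AltAnalyze junction names per the file headers; Trimmomatic 0.39 and kallisto are named in the submitters' processing notes with build mm10. The sources used here give no aligner, annotation or junction filter. Each value equalled reads plus 1, scaled by the library's junction reads and a length of 60 nt. Turning this around gave whole reads for every value above the floor in all 8 libraries, within 0.001 of a read.

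Reads were summed per gene and scaled to RPM. A fragment spanning several junctions counts at each, and genes without a named junction were not analysed here. The test was limma 3.58.1 (R 4.3.3, trend and robust) on log2(RPM + 1). It was run on the 11003 genes averaging 1 RPM or more, and p-values were adjusted by Benjamini-Hochberg over all of them (threshold 0.05). Junctions were tested on log2(RPM + 0.1) at a mean of at least 0.5 RPM. Tested on simulated data for this comparison, the gene fit (10811 genes) recovered 48 of 50 rises and 43 of 50 falls of 2-fold. The junction fit (98636 junctions) recovered 29 and 21 of 50, so a junction without a call may have changed. The simulated counts had no pairs and a fixed spread, smaller than that of genes such as Padi4 (310 ± 134 RPM in wild type, SD). These rates do not apply to genes of wider spread, so such a gene without a call may also have changed. Alternatives were edgeR 4.0.16 and DESeq2 1.42.0 on the recovered reads, other pseudocounts, filters and scaling, left-out libraries and a replicate block. The labels' numbers were taken as pairs because same-numbered libraries deviated together (correlations 0.32, 0.29, 0.36 and 0.55, against 0.15 at most between numbers). No 2 libraries of a group agreed within sampling noise (chi-square per degree of freedom at least 30.8).

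A junction value was called low at under 10% of what the gene's other junctions predicted, with a prediction of at least 100 scaled reads; this definition was set after the junction values of the 7 genes had been seen. Floors cover counting error only. Coordinates are from Gencode M21, promoters from RefSeq (GRCm38.p6, all 7 matched). Likeness was the Euclidean distance of scaled profiles over 8 libraries. Genes named were the 7, Cop1, from each of 6 lists those past the threshold (up to 6 by smallest adjusted p), up to 3 neighbours per locus and the 10 likest genes. The 7 genes, the lists and the tests were chosen with earlier results of these data known.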

Additional observations from a re-analysis of the deposited data

Results flagged for a closer look

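Among 18 groups of 4 libraries examined, 3 held a library whose gap to its nearest neighbour took up more of the group's range than Dixon's 95% critical value for 4 values; by chance about 1 in 20 groups would. In Lyz2, wild-type library 3 (83.6 RPM, against 21.2 to 25.4 RPM in the others) had a gap of 0.870 of the range of log2(RPM + 1). In Pglyrp1, knockout library 4 (62.2 RPM, against 159 to 174 RPM) had a gap of 0.908. In Padi4, knockout library 4 (257 RPM, against 605 to 701 RPM) had a gap of 0.852. Knockout library 4 was the lowest knockout library for all 7 genes, and the cause was not tested.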

How the results depend on the processing

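Ltf, Ngp, Lcn2 and Lyz2 passed as higher under all 19 alternatives, with log2 fold changes of 5.97 to 8.49, 6.40 to 8.86, 5.01 to 6.45 and 4.50 to 5.53 and highest adjusted p of 0.0124, 0.0165, 0.0183 and 0.0187. Camp, Pglyrp1 and Padi4 kept their direction and passed under some: in DESeq2 Camp (3.18) and Pglyrp1 (0.95), with the replicate block Pglyrp1 (0.79) and Padi4 (0.88), without both libraries numbered 4 Pglyrp1 (0.97) and Padi4 (0.80), and without knockout library 4 Camp (1.52) and Pglyrp1 (1.14). With 1 library left out, Camp ran from 0.99 to 1.52 (not tested without knockout library 2, where its mean was under 1 RPM, nor with the filter of 10 RPM or on its most-read junction), Pglyrp1 from 0.61 to 1.14 and Padi4 from 0.47 to 1.21. The cause was not tested. Of all genes, 934 were higher and 1330 lower; 1633 were higher in DESeq2, leaving out 1 library gave 509 to 1249 higher and 706 to 1742 lower, and TMM scaling, which moved the median of all genes from -0.07 to 0.00, gave 1092 and 972. Junctions of the 7 genes that passed as higher were 25, 42 with the replicate block, and 21 to 27 with 1 library left out. Pairs of genes that passed were 14, or 15 with a pseudocount of 5 RPM. Without the libraries numbered 4, pairs were given as values only, since 3 against 3 libraries cannot pass. Depth limits Camp, with at most 13 reads in a wild-type library.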
